A study of Arabidopsis thaliana with 5 samples.

Results

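The comparison was between wild-type (WT) Arabidopsis rosette leaves under water stress (WS) and WT leaves in optimal growth conditions (Op). All plants were of the Col-0 ecotype and were 5 weeks old, and they were grown at 22 °C with 16 h of light and 8 h of dark. Stressed plants had been without water for 5 days according to the sample labels. The study's methods give another number of days, another plant age and another salt treatment than the labels, which are followed here. The Op plants were watered. The series holds 5 arrays, and 3 of them enter the comparison: 1 WS array and 2 Op arrays. Each array carried WT RNA in one channel (Cy3) and RNA of a plant overexpressing a grain amaranth transcription factor in the other (Cy5). The Cy5 RNA came from an *AhERF*-overexpressing plant on the WS array and on Op array 1, and from an *AhDof*-overexpressing plant on Op array 2. Only the WT channel was compared. The remaining 2 arrays hold WT leaves collected 24 h after rewatering (R) and WT leaves given 40 mL of 400 mM NaCl for 3 days (SS), and their WT values are given beside some loci without a test. All 26017 loci with a gene spot were used, of which 25818 are in the RefSeq table of gene names (TAIR10.1). Gene names follow that table or the names in the files.

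When soil dries, leaves accumulate abscisic acid (ABA), which closes stomata by way of PYR/PYL receptors, PP2C phosphatases and SnRK2 kinases. The same pathway, together with DREB/CBF factors, is known to switch on genes for late embryogenesis abundant (LEA) proteins, dehydrins and the enzymes of proline synthesis. Genes of growth and of photosynthesis are commonly lowered in leaves under drought.

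There was 1 WS array, so its own error is not known, and the test assumed that it varied as the Op arrays did. The labels do not say whether plants were pooled or whether the 2 Op samples came from separate plantings, so p-values measure the spread between these arrays, which may be partly technical. The median intensity after subtraction of the local background was 795 units on the WS array, 1399 on Op array 1 and 1460 on Op array 2, so the WS array was the dimmest of the 3 and all comparisons rest on scaling the arrays to the same distribution. A locus was taken as above background where a spot was brighter than 95% of the 510 empty spots, which lay at 234 units on the WS array, 480 on Op array 1 and 369 on Op array 2. By that measure 22327 loci were above background on the WS array, 20429 on Op array 1 and 20572 on Op array 2, and 19120 were above it on all 3. The small number of arrays limits the precision.

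Whether a spot measures the gene it is named for is not shown by these data. Over 1464 transcript identifiers printed on exactly 2 spots, the mean brightness of the pair had a Pearson's r of 0.07 across identifiers, and the WS minus Op difference had an r of 0.11, while a spot and its neighbour of another locus had an r of 0.30 in that difference. These r values are descriptions across spots that share arrays. The labelled tissue could not be tested for the same reason. Leaf markers of photosynthesis (42 members) had a median brightness percentile of 58.0 among all loci, against 51.3 for root markers (7 members), 65.4 for seed storage markers (9 members) and 59.2 for flower and pollen markers (14 members). Levels of different spots are not comparable, so these percentiles are a description and do not test the tissue. The raw arrays were used under the labels they carry. The normalized tables recorded for WS and R are exchanged relative to the raw arrays and were not used. If instead the raw arrays were exchanged, the values given as WS would belong to R.

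The WS array differed from either Op array about as much as the Op arrays differed from each other. The standard deviation over loci was 0.615 log2 units for WS minus Op array 1 and 0.585 for WS minus Op array 2, and 0.63 for Op array 2 minus Op array 1. At least 2-fold differences were found at 2471 loci (9.50%) between WS and Op array 1, at 2145 (8.25%) between WS and Op array 2, and at 2525 (9.71%) between the Op arrays. Stress and optimal growth were therefore not separated by the number of loci past 2-fold.

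Loci that lay outside both Op arrays were fewer. The WS value was at least 2-fold above both Op arrays at 265 loci (1.02% of all) and at least 2-fold below both at 340 loci (1.31%), 2.33% in all. It was above both Op arrays by any amount at 34.8% of loci, below both at 31.5% and between them at 33.7%, so that the WS array took the high, low and middle place about equally often. The median difference over all loci was 0.015 log2 units. With limma, 7 of the 26017 loci (0.0269%) passed a Benjamini-Hochberg adjusted p of 0.05, 3 higher (0.0115%) and 4 lower (0.0154%) under WS, and 1057 loci (4.06%) had an unadjusted p under 0.05, 1.68% higher and 2.38% lower. At the median standard error, 0.47 log2 units, a difference has a 95% interval of 0.99 log2 units to either side, so most differences under 2-fold could not be resolved with these arrays.

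**Figure D1:**
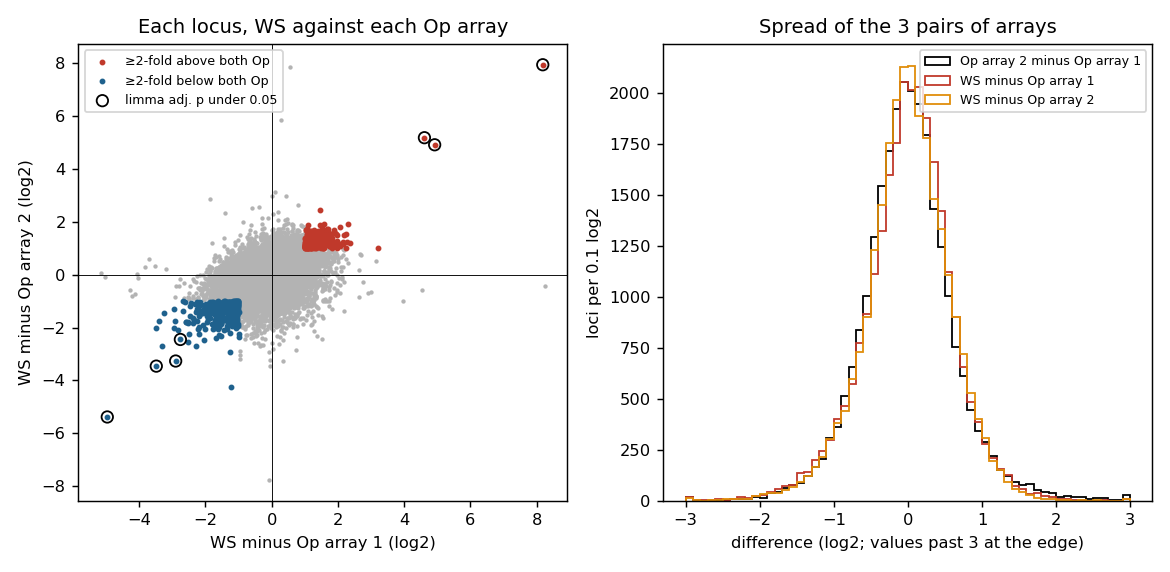
Left, each locus by its log2 difference between the WS array and Op array 1 (x axis) and Op array 2 (y axis), with the 265 loci at least 2-fold above both in red, the 340 at least 2-fold below both in blue and the 7 loci past adjusted p = 0.05 (limma) circled. Right, loci per 0.1 log2 of difference for the 3 pairs of arrays, with values past 3 placed at the edge; the 3 outlines nearly coincide.

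Of the 3 loci that rose, 2 had almost no signal in Op. AT5G29020, a locus with no name in the table used, had a net intensity of 19870 units on the WS array, against 13.1 and 23.9 on Op arrays 1 and 2. The difference was 8.07 ± 0.44 log2 units (SE) with an adjusted p of 1.741e-07, and since both Op values lay under the background limit it is given as at least 52.3-fold. The R array had 24530 units and the SS array 24.8, so the locus was bright on 2 of the 5 arrays and blank on the other 3. AT5G22270 (*SIED1*, named for its induction by salt) had 1408 units under WS, against 6.005 and 6.201 in Op, which is at least 5.23-fold (adjusted p = 1.741e-07). It had 5.51 units on the R array and 3.53 on the SS array, and was thus blank on every array but the WS array. Both loci lie in the same print block (row 12, column 2) of the 48 blocks. Their spots in Op were far under the limit set by the empty spots.

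The third was *MPK5* (AT4G11330), a mitogen-activated protein kinase. Its net intensity was 11350 units on the WS array, 681 on Op array 1 and 343 on Op array 2, where only the first of the Op values exceeded the background limit. The scaled difference was 4.90 ± 0.60 log2 units with an adjusted p of 0.0025, and since 1 of the 2 Op values was under the limit no exact fold is given. Its scaled values were 13.85 log2 units under WS, 9.24 and 8.66 in Op, and 8.35 and 8.30 on the R and SS arrays, so the WS value was the highest of the 5.

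Among the 4 loci that fell, the largest difference was at AT1G76640 (*CML39*), which encodes a calmodulin-like protein of the kind that binds calcium. It had 191 units under WS, which is under the background limit, against 9983 and 15640 in Op. It was therefore at least 30.5-fold lower (limma adjusted p = 0.0021). Its net intensity was 1171 units on the R array and 9140 on the SS array, whose medians were 432 and 836 units. The scaled values were 8.21 log2 units (WS), 13.17 and 13.59 (Op), 12.08 (R) and 13.44 (SS), so the WS value was the lowest of the 5.

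*ZKT* (AT1G55480), a protein with a PDZ domain, a K-box domain and a TPR region, was measured above background on every array. It had 1544 units under WS against 25410 and 31160 in Op, and 15820 and 36460 on the R and SS arrays. The scaled values were 11.27 log2 units (WS), 14.76 (Op array 1), 14.73 (Op array 2), 14.61 (R) and 14.93 (SS), so R and SS lay near Op. *ZKT* fell by 3.47 ± 0.43 log2 units with limma (adjusted p = 0.0025). Of the 7 loci it is the one with the clearest signal on both sides of the comparison.

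The other 2 were dim. *APM1* (AT4G33090), aminopeptidase M1, had 53.5 units under WS against 942 and 671 in Op, which is at least 2.14-fold lower (adjusted p = 0.0235). Its scaled value was 6.95 log2 units under WS against 9.70 and 9.40 in Op, with 7.36 on the SS array and 10.40 on the R array, so it was also low with salt and above both Op arrays after rewatering. AT1G07795 had -315 units under WS, where the local background exceeded the spot, against 423 and 456 units in Op, of which only the second passed the background limit. It fell by 3.08 log2 units (adjusted p = 9.579e-05), but was 0.745 log2 units above the Op mean when no background was subtracted, so its call rests on the background of that one spot.

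The calls depended on how the spread and the background were handled. With plain subtraction of the background (values under 50 units set to 50), AT5G29020 and AT5G22270 kept an adjusted p under 0.05 in limma, and *MPK5*, *ZKT* and AT1G76640 had adjusted p of 0.103, 0.0922 and 0.0802. Both Op values of AT5G29020 and of AT5G22270 lay under 50 units and were set to that floor. Their spread in Op was thus fixed by the setting, so their passing there does not show a firmer difference. Without the trend of the spread in brightness, AT5G29020 alone passed. All 7 differences kept their direction in both settings. A like limit holds in the main fit, where AT5G22270 had 6.22 log2 units on both Op arrays. Its SE was 0.279 and that of AT1G07795 0.28, both under the 5th percentile of SE over all loci, 0.289. These 2 loci lay at brightness percentiles of 3.2 and 2.3, so their adjusted p rest on the small spread that the trend gives to dim loci.

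The second channel of these spots moved with the first. At AT5G29020 the Cy5 net intensity was 23500 units on the WS array and 25.2 and 18.1 on the Op arrays, and at *MPK5* it was 4096 against 266 and 160. At AT1G76640 it was 49.5 against 5961 and 13170, and at *ZKT* 2083 against 34580 and 39760. For the 12 highest and 12 lowest loci described next, the unscaled net intensity of the second channel was compared between the WS and Op arrays. It was highest on the WS array at all 12 of the former and lowest there at all 12 of the latter. The median of that channel was 474 units on the WS array against 726 and 1001 on the Op arrays. Low WS values were thus favoured at any locus, and the share over all loci was not counted. The count of low loci therefore says little about them. The high loci had been chosen as high on the WS array, and both channels are read from the same printed spots. Their count is thus not independent of that choice either. The second channel holds another plant's RNA from the same growth state on the same printed spot. Whether the shared spot or the shared state goes with the joint movement was not tested.

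Since fewer than 24 loci passed the test, the loci named were the 12 farthest above and the 12 farthest below the nearer Op array among those at least 2-fold from both and above background where brighter. Apart from the 3 loci that rose, none of the higher 12 passed the adjusted test (9 had an adjusted p over 0.05), and their values are a description. *ELF3* (AT2G25930), a component of the evening complex of the circadian clock, had scaled values of 11.64 log2 units under WS against 9.34 and 9.71 in Op, a difference of 2.12 ± 0.57 (limma adjusted p = 0.887). *CO* (AT5G15840), the zinc finger factor CONSTANS of the photoperiod pathway, had 13.72 under WS against 12.06 and 12.05 (adjusted p = 0.996 in limma). *LFY* (AT5G61850), the floral meristem identity factor LEAFY, had 13.39 under WS against 11.65 and 11.83 (adjusted p = 0.996 in limma). These 3 loci were above background on each array, their Op arrays lay within 0.37 log2 units of each other, and the R array lay above both Op arrays, at 10.68 for *ELF3*, 12.79 for *CO* and 12.98 for *LFY*.

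A pair of the higher loci encode parts of SCF ubiquitin ligases. *HWS* (AT3G61590), the F-box protein HAWAIIAN SKIRT, had 11.69 log2 units under WS against 10.03 and 9.95 in Op, and *SK19* (AT2G03160), a SKP1-like subunit, had 12.39 against 10.47 and 10.82. *SK19* was also high with salt, at 11.73, while *HWS* was at its Op level there, at 10.04. The remaining 4 have no name in the table. AT5G28410 had 11.33 log2 units under WS against 9.25 and 9.52 in Op. AT3G42350, AT1G71020 and AT4G31490 were under the background limit on both Op arrays and are given as at least 1.45-fold, 2.12-fold and 2.38-fold higher.

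The last of the 12 lowest loci lay 2.03 log2 units under the nearer Op array, and the last of the 12 highest 1.56 above it. Of the 12 lowest, 9 had an adjusted p over 0.05. AT3G59650 had 9.99 log2 units under WS against 13.30 and 12.68 in Op, a difference of -3.001 ± 0.599 (limma adjusted p = 0.24). *UBP2* (AT1G04860), a ubiquitin-specific protease, had 10.59 against 12.77 and 12.85, and AT1G66830 had 10.49 against 12.70 and 12.55. These 3 were well above background on all arrays. *GTF2H2* (AT1G05055), a subunit of the general transcription factor TFIIH, was under the background limit on the WS array and is given as at least 5.08-fold lower, and AT5G53010 as at least 2.64-fold lower. *GTF2H2* was as low on the R array, at 8.18 log2 units against 8.34 under WS.

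AT1G01770 (8.85 log2 units under WS against 11.38 and 11.41 in Op), AT1G19397 (8.83 against 11.13 and 11.52), AT4G12230 (8.99 against 11.48 and 11.25) and AT2G39040 (8.77 against 11.71 and 10.80) complete the list. On the R array 9 of the 12 lay below both Op arrays and on the SS array 8 of the 12 did. Of the 12 highest, 9 lay above both Op arrays on the R array and 7 on the SS array. These arrays are set against the same Op values by which the loci were chosen, and the share over all loci was not counted. The counts are therefore given side by side, not as independent evidence and not as a response shared with R or SS.

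**Figure D2:**
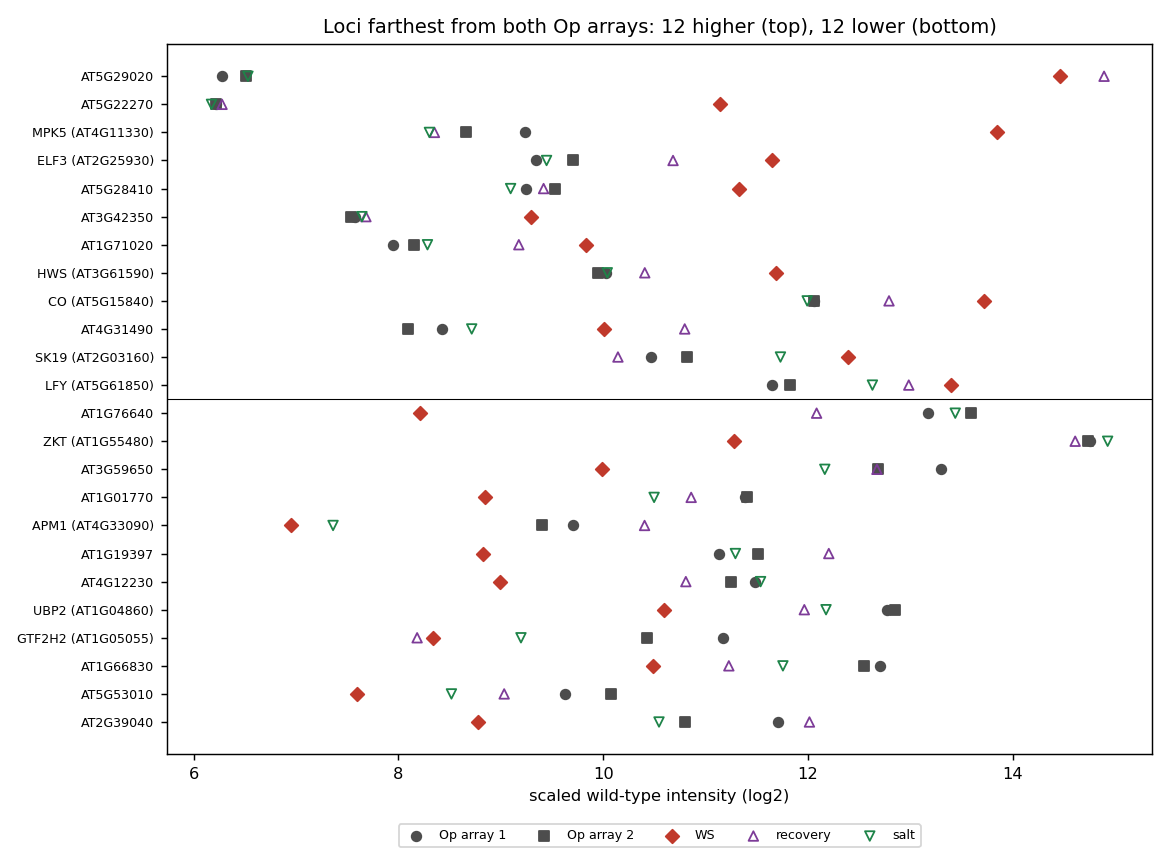
Scaled WT intensity (log2, x axis) of the 12 loci farthest above (top) and the 12 farthest below (bottom) both Op arrays, with 1 point for each array: Op arrays 1 and 2 (grey), WS (red), recovery (purple) and salt (green). AT5G29020 is bright on the WS and recovery arrays, and GTF2H2 is as low on the recovery array as under WS.

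The position of a spot on the array moved with the difference. The array was printed in 12 rows and 4 columns of blocks, and the median WS minus Op difference of a block ran from -0.31 to 0.48 log2 units, while that of Op array 2 minus Op array 1 ran from -0.63 to 0.59. Of the loci with 1 spot, 3.12% in block rows 1 and 12 lay at least 2-fold below both Op arrays (122 of 3905), against 1.06% in rows 2 to 11 (213 of 20186). The loci at least 2-fold above ran the other way, at 0.512% and 1.21%. By block column, 2.79% of loci in column 1 lay at least 2-fold below both Op arrays (169 loci) against 0.486% in column 3, and 0.379% and 1.99% lay above. Rows and columns thus both went with the counts, and 6 of the 12 lowest loci, *UBP2*, *GTF2H2*, AT3G59650, AT1G01770, AT4G12230 and AT5G53010, lie in block row 1.

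When the medians of every block were made equal between arrays, the loci at least 2-fold above both Op arrays numbered 183, of which 87 were among the 265 before, and those below numbered 180, of which 131 were among the 340. All 7 loci past the adjusted p were called in this fit too, and of the 24 named loci 11 of the 12 highest and all 12 lowest were still at least 2-fold from both Op arrays. The named loci had been chosen as the farthest. The 12 lowest lay at least 2.03 log2 units below the nearer Op array, while block medians ran only from -0.31 to 0.48. Their place past 2-fold was thus largely set by that choice and says little about the part of position in them. Most of the other loci past 2-fold did not reach it in that fit.

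**Figure D3:**
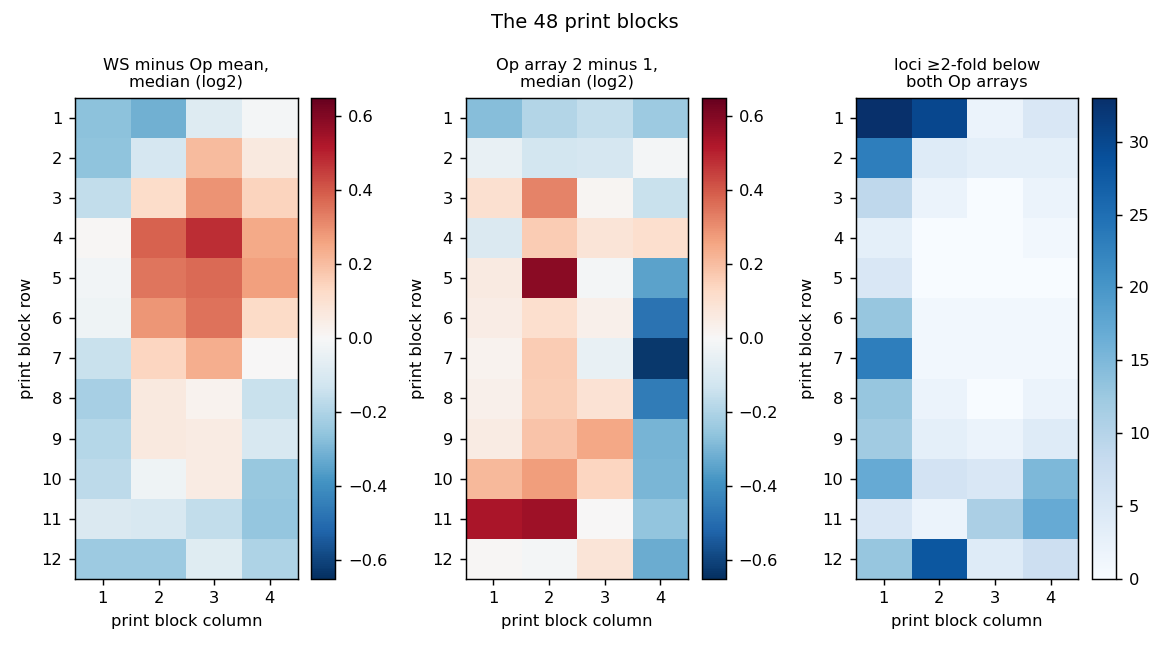
The 48 print blocks by row (y axis) and column (x axis), from loci with 1 spot: the median WS minus Op mean difference (left, log2), the median difference between the Op arrays (centre, log2) and the number of loci at least 2-fold below both Op arrays (right). Median differences are positive in rows 4 to 6 of columns 2 and 3 and negative in all blocks of rows 1 and 12, and the block in row 1 and column 1 holds the most low loci, 33.

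Brightness also went with the number of loci past 2-fold. Among loci in the top 20% by brightness, 0.0192% (1 locus) lay at least 2-fold above both Op arrays and 0.307% below, while between the 40th and 60th percentiles the shares were 2.36% and 2.82%. The Op arrays were at least 2-fold apart at 4.77% of the brightest loci and at 15.6% of those in the middle, so the spread between like arrays was also smaller among the brightest. The course was not the same throughout. In the 20% of loci between these groups the Op arrays were 2-fold apart at 16.9%, while 1.25% lay above both and 2.13% below.

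The 21 genes listed as responsive to ABA and dehydration showed little difference between WS and Op. None passed the adjusted test and none lay at least 2-fold beyond both Op arrays; 9 were above both, 5 below both and 7 between. Their median difference was 0.15 log2 units, against 0.015 for all loci and 0.19 for the same genes between the Op arrays. Several were bright already in Op. *RD29A* (AT5G52310, *LTI78*), a standard marker of drought and cold, had 14.74 log2 units under WS against 14.40 and 14.48 in Op, a difference of 0.30 ± 0.32 with a 95% interval from -0.38 to 0.98. *RAB18* (AT5G66400), an ABA-responsive dehydrin, had 14.53 against 14.12 and 14.41, with an interval of the difference from -0.47 to 1.00. Both differences were negative, at -0.30 and -0.22, once the block medians were made equal. A rise of more than about 2-fold lies outside these intervals, so far as these spots measure the named genes and remain linear at this brightness. The intervals take the spread of the 1 WS array from the Op arrays. Both genes are among the brightest 20% of loci, where only 1 locus lay at least 2-fold above both Op arrays. The intervals therefore do not exclude such a rise in the plants.

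The other fixed markers of the pathway lay close to or between the Op arrays. *RD29B* (AT5G52300), a LEA-like protein under ABA control, had 10.99 log2 units under WS and lay between its Op values of 10.39 and 11.53. *NCED3* (AT3G14440), the rate-limiting enzyme of ABA synthesis under drought, had 13.04 and lay between 13.07 and 12.58. *DREB2A* (AT5G05410), an activator of dehydration genes, had 14.77 against 14.42 and 14.67. None of these was separated from the spread between the Op arrays. *KIN1* (AT5G15960), a small cold- and ABA-induced protein, had 8.79 log2 units under WS against 9.17 and 8.86, and its difference of -0.23 became 0.18 with equal block medians and 0.13 with median scaling. *P5CS1* (AT2G39800), which makes proline, had 12.39 against 12.49 and 12.53, and *ERD5* (AT3G30775), the proline dehydrogenase that breaks it down, had 11.64 and lay between 11.63 and 12.45.

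*RD22* (AT5G25610), a dehydration gene under MYC and MYB factors, had the largest difference of the list. It stood at 10.17 log2 units under WS against 8.98 and 9.20 in Op, which is 1.08 ± 0.48 (unadjusted p = 0.041, limma adjusted p = 0.996). Next by distance from the nearer Op array were *LTI30*, a dehydrin, and *RD26*, a NAC factor, whose differences from the Op mean were -0.51 ± 0.60 and -0.50 ± 0.61. The Op arrays themselves were at least 2-fold apart at 3 of the 21 genes.

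**Figure D4:**
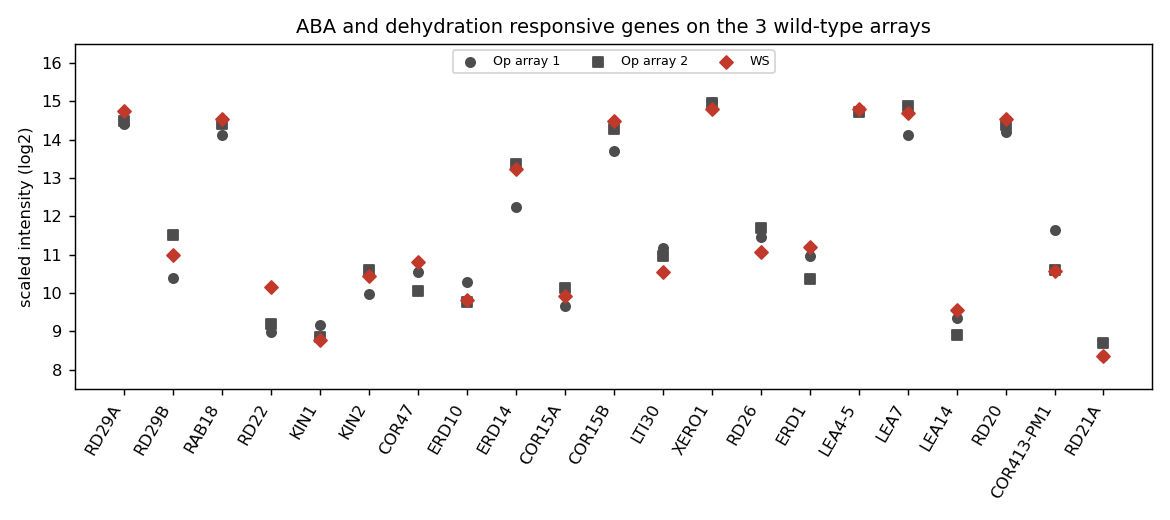
Scaled WT intensity (log2, y axis) of the 21 genes responsive to ABA and dehydration on Op array 1 (circles), Op array 2 (squares) and the WS array (red diamonds). The WS value lies within or near the 2 Op values at most genes, and RD22 is the farthest above them.

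Of the 365 different genes on the 20 lists, none passed the adjusted test, 8 lay at least 2-fold above both Op arrays (2.19%, against 1.02% of all loci) and 4 at least 2-fold below (1.1%, against 1.31%). The 12 are given here as values, and with equal block medians 11 of them were less than 2-fold from the nearer Op array. The other, *PSAD1*, was under the background limit in Op, so its fold there is only a bound. In ABA synthesis and signalling (37 genes, median difference 0.09), *AAO3*, the aldehyde oxidase of the last step of ABA synthesis, had 9.16 log2 units under WS against 11.12 and 10.32 in Op. *SNRK2.3*, a kinase that ABA activates, lay on the other side, at 11.77 against 10.83 and 10.71. *ABA2*, an earlier enzyme of the ABA route, stood at 13.96 against 13.207 and 12.996. The differences from the Op mean were -1.56 ± 0.59 log2 units for *AAO3* and 0.86 ± 0.45 for *ABA2*. Both had an adjusted p of 0.996 in limma, so no direction is given for the route.

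Among 25 drought transcription factors (median -0.02), *MYC2*, a factor of the jasmonate and ABA pathways, had 13.38 log2 units under WS against 12.26 and 12.05 in Op, a difference of 1.22 ± 0.54 (limma adjusted p = 0.996). *ZAT10*, a zinc finger repressor, had 11.69 against 10.86 and 10.82, and *CBF4*, a DREB factor, had 13.64 against 14.29 and 14.19. On this list 8 genes were above both Op arrays and 8 below both. The list median depended on the position of the spots, at 0.16 with equal block medians and 0.23 without block rows 1 and 12. The 22 jasmonate genes had a median of 0.16, with 10 above both Op arrays and 4 below both. *JAZ3*, a repressor of the pathway, was the farthest, at 10.65 against 9.65 and 9.70.

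In the stomatal list (24 genes) the median was 0.33 log2 units, with 13 genes above both Op arrays and 7 below both. With equal block medians the median was 0.04, with 9 above both and 9 below. *KAT2*, an inward potassium channel of guard cells, was under the background limit on the WS array and is given as at least 1.32-fold lower, with scaled values of 7.75 log2 units against 8.78 and 8.92. *EPF1*, a peptide that spaces stomata, had 13.17 against 14.34 and 14.05. The guard cell markers *KAT1*, *MYB60* and *SLAC1* did not go one way, with differences of 0.724 ± 0.585, -0.075 ± 0.585 and -0.198 ± 0.645 log2 units. In whole leaves fewer cells of a type and less RNA per cell cannot be told apart.

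The 42 photosynthesis genes did not have a lower level as a group. The median difference was 0.16 log2 units, and -0.05 with median scaling relative to all loci; 19 genes were above both Op arrays and 11 below both. The 3 genes at least 2-fold above both were *LHCB2.3*, *LHCB2.2* and *PSAD1*, the first pair encoding light-harvesting proteins of photosystem II and the last a subunit of photosystem I. *LHCB2.3* had 11.91 log2 units under WS against 10.37 and 10.89 in Op, and *LHCB2.2* had 10.75 against 9.45 and 9.62. *PSAD1* had 9.20 against 7.90 and 7.94, with both Op values under the background limit, and is given as at least 1.36-fold higher. These genes belong to families of close copies, and spots of such copies can share RNA. *RBCS1A*, a small subunit of Rubisco, had 10.29 against 11.51 and 10.74.

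Of the 18 aquaporins (median 0.19), 10 were above both Op arrays, as were 34.8% of all loci, and 5 were below both. With equal block medians their median was 0.09, with 9 above both and 3 below. *PIP1B*, a water channel of the plasma membrane, had 11.33 log2 units under WS against 9.86 and 10.33 in Op, and *PIP2;7* had 10.57 against 9.67 and 9.40. Both were as high on the R array, at 11.77 and 10.73. Of the 25 antioxidant genes (median 0.12), *CSD2*, a copper/zinc superoxide dismutase of the chloroplast, had 13.39 log2 units under WS against 12.17 and 12.29, and *APX6*, an ascorbate peroxidase, had 8.61 against 9.995 and 10.026. *APX6* was at its Op level on the R array, at 9.96, and *CSD2* was not, at 13.22. Of the 20 cell wall genes (median 0.31), *XTH7*, a xyloglucan endotransglucosylase/hydrolase, had 12.21 against 10.38 and 10.96, and *CESA3* and *CESA1*, subunits of the cellulose synthase of growing walls, had differences of 0.81 ± 0.61 and 0.67 ± 0.60.

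In the lists of proline metabolism, sugars and starch, heat shock proteins, wax and cutin, senescence, salicylic acid defence and glucosinolate synthesis, no member lay at least 2-fold above both Op arrays. In glucosinolate synthesis 1 lay below, *MAM1*, an enzyme that lengthens methionine chains, at 9.88 log2 units against 11.36 and 10.90. List medians were -0.03 for proline metabolism (7 genes), -0.01 for raffinose, trehalose, sucrose and starch (15), 0.14 for heat shock proteins (10), 0.13 for cuticular wax and cutin (23), 0.13 for senescence (12), 0.22 for salicylic acid defence (15) and 0.00 for glucosinolate synthesis (15). With equal block medians the median was -0.31 for proline metabolism (1 gene above both Op arrays and 5 below), 0.345 for heat shock proteins, -0.01 for wax and cutin and 0.10 for salicylic acid defence, so several of these medians depended on the position of the spots. Of the 12 senescence genes 5 were above both Op arrays, 3 below both and 4 between. *ORE1* was the farthest from the nearer Op array, at 8.91 log2 units under WS against 8.15 and 8.33, with both Op values under the background limit. *SAG12*, a protease that marks old leaves, lay on the other side and was under the background limit on the WS array, at 8.22 log2 units against 8.77 and 8.93. Reference genes commonly taken as stable (9) had a median of -0.12, with 2 above both Op arrays, 4 below both and 3 between, and the same genes had a median of 0.57 between the Op arrays. Their median was 0.11 with equal block medians and 0.61 without block rows 1 and 12. Among them *ACT7* had 11.48 log2 units under WS against 10.59 and 11.15 in Op, *UBC21* had 10.59 against 11.29 and 11.99, and *PP2AA3* had 12.92 against 13.69 and 13.87, so that the first lay above and the others below each Op array.

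Many markers of other organs lay above both Op arrays, as did 34.8% of all loci. Of the 14 flower and pollen markers, 10 were above both Op arrays and 1 below both, with a median of 0.455 log2 units, and their summed scaled intensity was 91690 units under WS against 56280 and 77810 in Op. All but *PI* were above background on each array, and *AP3*, a floral organ identity factor, had 11.55 log2 units under WS against 10.46 and 10.40. With equal block medians 7 were above both and 3 below, with a median of 0.26. Of the 9 seed storage markers 6 were above both and 1 below, with a median of 0.38 and a summed intensity of 63850 units against 56510 and 62820; with equal block medians 7 were above and 0 below, with a median of 0.45. Of the 7 root markers 3 were above both and 1 below, with a median of 0.28, and their sum, 22060 units, lay between the Op sums of 22510 and 17370. Their median was -0.17 with equal block medians (2 above, 3 below) and -0.03 with median scaling. The part of these markers in the other differences was not tested.

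**Figure D5:**
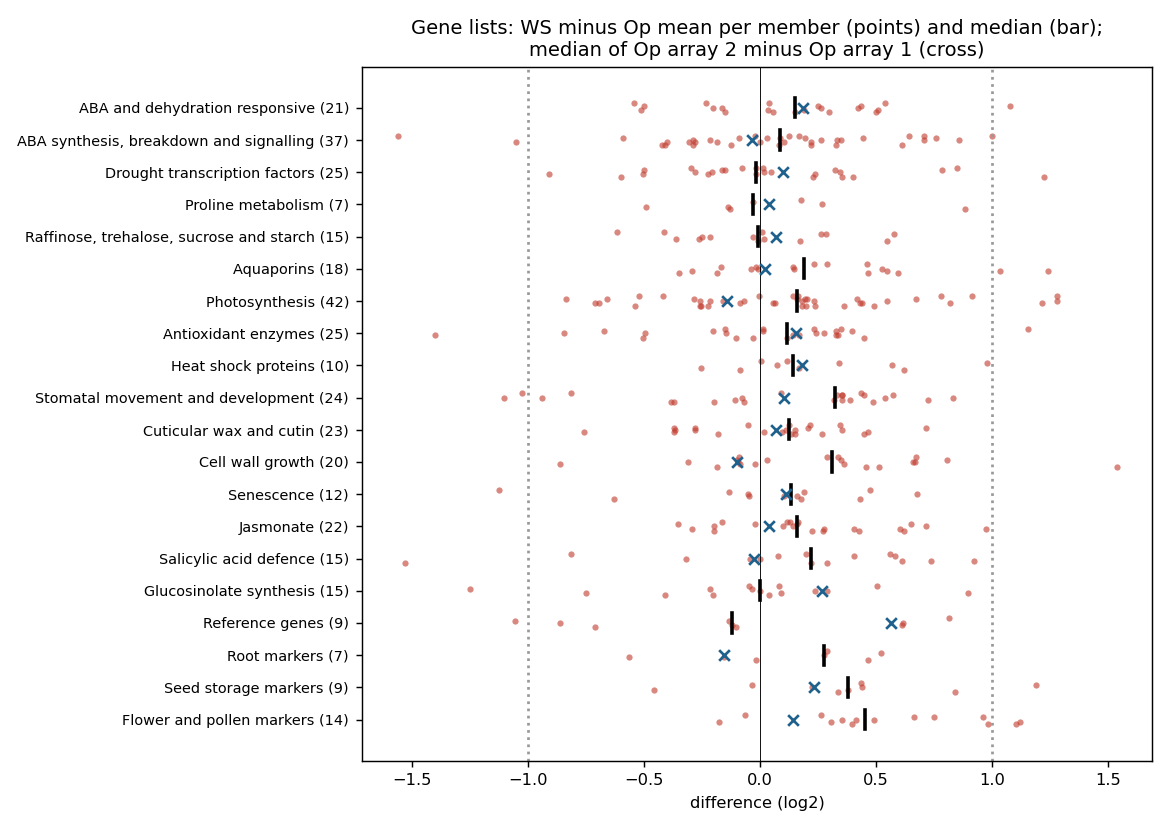
WS minus Op mean difference (log2, x axis) of each member of the 20 gene lists (points), the median of each list (black bar) and the median of Op array 2 minus Op array 1 for the same list (blue cross), with dotted lines at 2-fold. The medians of all lists lie between -0.12 (reference genes) and 0.455 (flower and pollen markers).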

How the data were processed

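The deposited raw files hold, per the file headers, the intensity and the local background intensity of each of 30000 spots in both channels; the scanner and its software are not given in the sources used here. Normalized and series tables were not used. The WT channel was background-corrected by normexp with an offset of 50 (limma 3.58.1, R 4.3.3), log2-transformed and quantile-normalized over the 29234 gene spots of the 3 arrays, and spots were averaged per transcript identifier and then per locus. WT values of the R and SS arrays were mapped to the same distribution by rank. WS was compared with Op by lmFit and eBayes with a trend in brightness (1 residual and 14.4 prior degrees of freedom) and Benjamini-Hochberg adjustment over 26017 loci; the steps were tested on simulated data. Where a locus was not above background in the dimmer group, a bound ("at least") was set from the lowest spot above background on each array.

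Loci were named by rule: the 12 highest and 12 lowest, 8 fixed markers, and up to 4 genes per list. They were taken by the size of their difference from the nearer Op array. *RBCS1A* was named outside this rule. The loci past the adjusted p, the guard cell and reference genes and the second channel were added after their values were seen. Members and gene lists were chosen with earlier results of these data known. Of 380 list entries, 370 matched the RefSeq name and were on the array. Alternatives were other background, scaling, filtering, spot and position settings.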

Additional observations from a re-analysis of the deposited data

Results flagged for a closer look

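AT5G29020 gave a signal outside the arrays compared: its WT net intensity was 24530 units on the recovery array, while both Op arrays lay under the limit of the empty spots.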

How the results depend on the processing

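Loci higher under WS numbered 3, but 7 with median scaling, 10 with each gene spot on its own, and 1 with eBayes without trend, without loci that had a spot under 50 units on any of the 5 arrays, or without print block rows 1 and 12 (the latter pair of settings was chosen after seeing the data). Loci lower under WS numbered 4, but 0 with plain subtraction or eBayes without trend (925 and 1138 loci with an unadjusted p under 0.05 in either direction), 2 without the dimmest 25% of loci and 14 with each spot on its own. Loci at least 2-fold above both Op arrays numbered 417 with median scaling, which moved the median of all loci to 0.28 log2 units and the share of higher loci among those past 2-fold from 43.8% to 58.7% (53.3% without block rows 1 and 12). Loci at least 2-fold below numbered 180 with block medians subtracted and 215 without block rows 1 and 12. List members past 2-fold numbered 2 with block medians subtracted. AT1G07795 was 0.745 log2 units higher with no background correction, and AT3G59650 passed the test with median scaling (limma adjusted p = 0.00777).

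With 1 Op array left out there was 1 array against 1 and no test: 932 to 1061 loci were then at least 2-fold above, 1213 to 1410 below, and 32 to 38 list members beyond. The other counts kept within 1.5 times, and all 7 called loci were called again with block medians subtracted; *APM1* was lost in 5 settings and AT1G07795 in 4. No paired analysis was possible because there was 1 WS array.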
